A study of Mus musculus with 20 samples.

Results

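Cytoplasmic ribosomal protein genes were examined in whole striatum of 20 male mice. The genes were taken from the deposited count table by symbol: 83 loci carried a single symbol of the Rpl, Rps, Rpsa or Rplp type, and the 80 with a summed count of at least 400 over the 20 libraries were kept, of 37051 loci in all. Of these, 31 encode proteins of the small subunit, 45 proteins of the large subunit, and 4 are paralogs with their own genes (Rps27l, Rpl22l1, Rpl7l1 and Rps4y2). The lowest locus inside the minimum was Rps4y2 with a summed count of 4487, and the highest one below it was Rpl3l with 326. Rpl39l held 40 counts and Rpl10l held 1. The members were chosen by symbol and by summed count, with their changes already known, so their joint behaviour is described and not tested.

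The mice are labelled Collaborative Cross, a population bred from several inbred founder strains. A line selected for overactivity in the cage was set beside a control line. Within each line 5 mice received saline and 5 received d-amphetamine at 25 mg/kg, and the striatum was taken 2 hours later at about 6 months of age. The groups are called control saline, control amphetamine, overactive saline and overactive amphetamine (SC, AC, SO and AO in the plots), with 1 library per mouse in each. The sources used here do not say which founder haplotypes the mice carried, and whether mice of a group shared a litter is not stated. In such bulk tissue, fewer cells of a type and less RNA per cell cannot be told apart. Library totals ran from 31393788 to 53773028 counts. The 12 tested loci of 11 striatal projection neuron markers summed to 6019 to 7186 CPM in the group means, and none was at 0. CPM are counts scaled by the effective library size. Markers of the cortex were present as well, at 392 to 1052 summed CPM.

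Ribosomal proteins coat the rRNA of the small subunit, which reads the mRNA, and of the large subunit, which joins amino acids. They are needed in equal numbers, and their mRNAs are usually abundant and kept at similar levels. Most of these mRNAs begin with a run of pyrimidines (the terminal oligopyrimidine, or TOP, sequence) through which mTOR signalling and Larp1 set their translation and stability. In striatal neurons phosphorylation of the protein Rps6 is widely used as a readout of dopamine-driven activity, a change in the protein that mRNA counts do not measure. Ribosomal protein genes have also left many processed pseudogenes in the mouse genome, near-copies of the mRNA without introns, and reads from gene and copy are hard to tell apart.

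Pyrimidine runs near the annotated starts of these genes differed in length. RefSeq start windows (GRCm38.p6) were found for 59 of the 80 genes. An unbroken run of C and T of at least 8 bases that overlapped the 30 bases from 10 before to 20 after the annotated start was found in 31 of 59 (52.5%), against 20.2% of 11710 tested genes with a window. The median longest run was 9 bases in the ribosomal protein genes and 5 in all. The windows below are shown for genes whose values follow. They span the 20 bases on either side of the annotated start, and the capitals mark the pyrimidine run.
Rps24 (chr14:24490658-24490697, plus strand): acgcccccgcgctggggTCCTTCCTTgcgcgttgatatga
Rpl14 (chr9:120571497-120571536, plus strand): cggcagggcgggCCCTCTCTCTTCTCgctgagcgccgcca
Rps6 (chr4:86857348-86857387, minus strand): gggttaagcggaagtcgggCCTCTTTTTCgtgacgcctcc
Rpl35a (chr16:33056462-33056501, plus strand): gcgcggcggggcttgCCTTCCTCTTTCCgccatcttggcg
Rpl13a (chr7:45128726-45128765, minus strand): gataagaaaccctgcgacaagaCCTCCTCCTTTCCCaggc
Rps13 (chr7:116334171-116334210, minus strand): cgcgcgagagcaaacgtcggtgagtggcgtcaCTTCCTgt
Rpl5 (chr5:107900508-107900547, plus strand): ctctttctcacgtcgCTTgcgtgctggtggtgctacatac
Rps15 (chr10:80292411-80292450, plus strand): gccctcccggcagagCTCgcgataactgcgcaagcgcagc
The first 5 hold runs of 9 to 14 bases. In Rps13, Rpl5 and Rps15 the longest run that overlapped the bases from 10 before to 20 after the start was 3 to 6 bases. Runs further upstream, such as the one that opens the Rpl5 window, are not marked. A counted run need not open at the first base of the mRNA, so these runs do not show which genes have a TOP sequence. Over the whole window from 250 bases before to 50 after the start, and on either strand, the letters CCGGAA (the core bound by ETS factors) were present in 57.6% of the members and 27.1% of tested genes, and AAGATGG (a core bound by YY1) in 16.9% and 7.75%. The TATA letters TATAAA were present in 11.9% and 9.34%. These are matches of letters and show no binding. Of the 79 members matched to a protein-coding gene model, 29 (36.7%) also held an annotated small nucleolar RNA, against 2.06% of 20204 protein-coding loci.

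All 80 genes passed the filter on low counts, and together they held 1.17% of all counts. Per kilobase of mRNA, the highest level was that of Rps24, a small subunit protein mutated in an inherited anaemia, at 656 ± 46.1 CPM per kb (SD over 20 libraries). Next came Rplp1, an acidic protein of the stalk that recruits translation factors, at 515 ± 48.2 CPM per kb. Rpl41 followed, the smallest ribosomal protein, with 452 ± 33.6 CPM per kb. Rps24 lay further above Rplp1 than either SD, whereas Rplp1 and Rpl41 differed by less than the sum of their SDs. Among the 79 genes with an annotated mRNA length, the lowest were the paralog Rps27l at 14.5 ± 1.54 CPM per kb, the paralog Rpl7l1 at 26.9 ± 2.09 and Rps20, a protein of the small subunit's head, at 28.4 ± 2.34. The value of Rps20 rests on an annotated mRNA of 3706 bases, and its CPM without division by length was 105. Median levels were 193 CPM per kb over small subunit genes and 185 over large subunit genes.

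The paralogs lay well below their parents. Rps27l, known as a p53 target, reached 6.73, 7.24, 8.49, 6.97 and 8.02 CPM in control saline, where its parent Rps27 reached 119.8, 117, 137, 122 and 131. Rpl22l1, a paralog whose mRNA the Rpl22 protein is known to repress, stood at 41.6 ± 2.61 CPM in control saline (mean ± SD, n = 5) against 73.1 ± 5.67 for Rpl22. Rpl7l1, by sequence related to Rpl7, stood at 35.2 ± 3.56 CPM against 188 ± 8.20. Rpl3, which lies near the catalytic centre, and Rpl10, which joins the large subunit late, reached 395 ± 33.0 and 242 ± 13.9 CPM, while their muscle and testis paralogs Rpl3l and Rpl10l fell below the count minimum. The same held for Rpl39l, beside 31.6 ± 1.79 CPM for Rpl39, which lines the exit tunnel. In each of these pairs every library had more counts on the parent than on the paralog. Rps4y2 is a separate case: its deposited locus spans 551955 bases of chromosome 6 and takes in 7 other annotated genes, and the annotation lists the matching gene as a transcribed processed pseudogene, so its values may count other transcripts.

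Most ribosomal protein mRNAs varied between mice about as much as other genes. The median coefficient of variation (CV, the SD divided by the mean over the 20 libraries) was 8.86%, against 9.40% for 12046 genes tested at or above the level of the lowest member. That level is 5.42 CPM, the mean of Rps4y2, and most members lie far above it. The 12046 genes are thus not matched to the members in level, and the small gap is not a trait of the members. The sum of small subunit CPM divided by that of large subunit CPM was 0.662 ± 0.0054 in control saline, 0.658 ± 0.023 in control amphetamine, 0.664 ± 0.0035 in overactive saline and 0.658 ± 0.0061 in overactive amphetamine. The group means of this ratio differed by less than the SD of the control amphetamine group. Of the 80 genes, 6 (7.5%) had a CV above 20%, against 11.9% of the genes at or above the level of the lowest member: Rpl29 (67.4%), Rpl34 (45.8%), Rps4y2 (36.2%), Rpl26 (34.0%), Rpl30 (24.9%) and Rpl36a (20.4%). The last 3 are named after their values were seen.

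Much of the variation was shared by most members, though not by all. With each group's mean subtracted from log2 CPM, the median Pearson correlation between 2 members over the 20 libraries was 0.67 in 3160 pairs. In the same values, 47 members had r of 0.8 or above with the mean of the others. The closest to that mean were the large subunit genes Rpl9 (r = 0.95), Rpl4 (0.95) and Rpl24 (0.95), followed by Rps21 (0.95) and Rps28 (0.94). These values describe 20 libraries in which all genes share depth, scaling and tissue. The same correlations were not taken for other genes of similar level, so they are not shown to be particular to the members. Under 0.4 were 6 members: Rps3 (0.35), Rpl7l1 (0.33), Rpl30 (0.30), Rpl26 (0.22), Rpl34 (0.05) and Rpl29 (-0.55). The mean deviation of the 80 genes from their own averages was lowest in control amphetamine mouse 2 (-0.23 on the log2 scale) and highest in overactive amphetamine mouse 2 (0.17), followed by overactive saline mice 5 (0.16) and 1 (0.12). In each group the range over mice was wider than the range of the group means. The sums of choroid plexus markers in the 4 mice just named, in that order, were 232, 294, 200.4 and 903 CPM, and those of thalamic, hypothalamic and septal markers 188, 524, 239.8 and 609 CPM. The part of these markers in the members' levels was not tested.

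**Figure D1:**
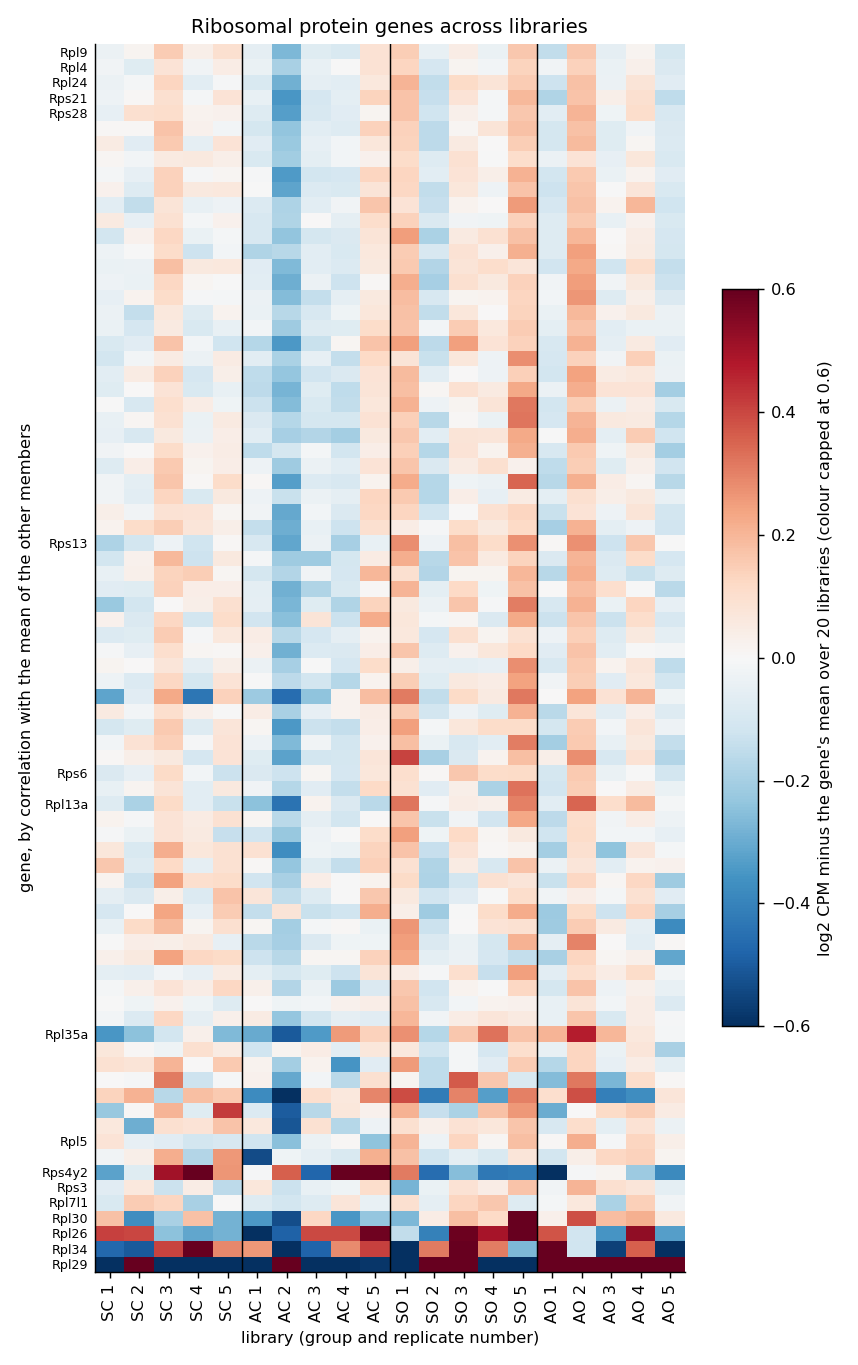
Log2 CPM of the 80 ribosomal protein genes (lines of the map) in 20 libraries (columns, by group and replicate number), each gene relative to its own mean, with colour capped at 0.6 in either direction. Symbols are printed for some of the genes described in the text. Genes are ordered by their correlation with the mean of the other members, taken with group means subtracted. Most of the upper lines share their colour within a library, such as the low values in control amphetamine mouse 2, while Rpl26, Rpl34 and Rpl29 at the bottom do not.

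For Rpl29, Rpl34 and Rpl26, 3 of the genes outside the common course, counts on the gene and counts on its pseudogene copies varied in opposite directions between mice. Of 79 members with a coding sequence, 74 had at least 1 annotated transcript elsewhere with at least 95% identity over at least 80% of the coding bases. There were 578 such copies, of which 560 are annotated as processed pseudogenes. Deposited counts on such a pseudogene were found for 35 members, and in 8 these exceeded 5% of the member's own counts. Relative to the gene's own counts they came to 253% for Rpl29, 121% for Rpl34, 32.5% for Rpl26, 27.8% for Rps2 and 12.7% for Rpl35a. For Rps6 and Rpl21 they came to 6.61% and 5.22%.

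How little separates gene and copy is seen in the coding sequence. Each pair of lines below gives 60 bases of a gene and the same stretch of its main counted copy, from the GENCODE M21 transcripts, with the bases that differ in capitals.
Rpl29: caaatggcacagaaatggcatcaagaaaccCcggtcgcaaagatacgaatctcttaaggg
Gm8210 (copy): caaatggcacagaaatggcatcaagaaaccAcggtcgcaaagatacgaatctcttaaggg
Rpl34: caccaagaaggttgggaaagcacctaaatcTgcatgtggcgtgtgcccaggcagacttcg
Rpl34-ps1 (copy): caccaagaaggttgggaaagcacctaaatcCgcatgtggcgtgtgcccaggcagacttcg
Rpl26: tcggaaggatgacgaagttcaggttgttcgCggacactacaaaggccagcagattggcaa
Gm15772 (copy): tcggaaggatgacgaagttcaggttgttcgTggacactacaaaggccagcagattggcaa
Rpl35a: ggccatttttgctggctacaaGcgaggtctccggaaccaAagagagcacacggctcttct
Gm14279 (copy): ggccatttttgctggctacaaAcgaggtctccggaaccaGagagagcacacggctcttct
Rpl29 (chr9:106429454-106431568, GRCm38, as in all positions here) and Gm8210 (chr1:43189156-43189638) differ at 3 of 480 coding bases. Rpl34 (chr3:130726831-130730398) and Rpl34-ps1 (chr6:71124610-71124963) differ at 2 of 351. Rpl26 (chr11:68901583-68906989) and Gm15772 (chr5:3236431-3236868) differ at 2 of the 309 bases aligned. Rpl35a (chr16:33056453-33060189) and Gm14279 (chr2:157521697-157522028) differ at 5 of 330. A read that covers none of these bases reads the same from gene and copy. Whether the mice carry other bases at these positions was not tested.

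Rpl29, a basic protein of the large subunit, had 10.9, 47.1, 10.0, 10.0 and 11.5 CPM in control saline mice 1 to 5, 9.99, 28.3, 8.85, 9.53 and 11.7 in control amphetamine, 8.66, 30.1, 30.3, 9.03 and 10.3 in overactive saline and 45.1, 30.2, 28.4, 30.1 and 52.9 in overactive amphetamine. The counts on its copies in the same order of mice were 74.5, 6.45, 74.5, 72.1 and 84.1 CPM, then 74.0, 40.0, 69.5, 71.0 and 80.2, then 74.1, 41.2, 40.9, 67.1 and 86.8, then 37.4, 43.4, 36.7, 44.9 and 6.80. Where the gene was low the copies were high, and the reverse. In 11 mice the copies lay at 67.1 to 86.8 CPM and the gene at 8.66 to 11.7. In 7 mice the copies lay at 36.7 to 44.9 and the gene at 28.3 to 45.1, and in 2 mice the copies lay at 6.45 to 6.80 and the gene at 47.1 to 52.9. All 5 overactive amphetamine mice were in the last 2 classes, beside 1, 1 and 2 mice of control saline, control amphetamine and overactive saline. Adding gene and copies left 53.5 to 97.1 CPM and brought the CV from 67.4% to 14.4%.

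Rpl34, a large subunit protein, showed the same pattern. Its own counts were 21.6, 21.1, 39.6, 59.6 and 36.5 CPM in control saline, 35.8, 18.9, 21.4, 36.4 and 39.7 in control amphetamine, 12.4, 37.1, 67.0, 37.0 and 24.8 in overactive saline and 57.1, 27.5, 20.2, 38.3 and 11.5 in overactive amphetamine. The 3 mice above 55 CPM came from 3 groups and had 3.91 to 4.65 CPM on the copies, whereas the other 17 had at least 35.2. Rpl26, which sits at the exit of the nascent chain and whose protein is known to bind the p53 mRNA, held 158, 157, 100.3, 95.9 and 97.7 CPM in control saline, 25.9, 84.9, 156, 156 and 178 in control amphetamine, 107, 89.9, 179, 167 and 192 in overactive saline and 155, 109.6, 93.0, 172 and 94.6 in overactive amphetamine. In 10 mice its copies had 1.33 to 2.17 CPM and the gene at least 155. In 9 mice the copies had 66.4 to 83.7 and the gene 84.9 to 109.6. In control amphetamine mouse 1 the copies had 143 and the gene 25.9. Rpl26 was added to the genes described after its values were seen. The sum of gene and copies had a CV of 9.85% for Rpl34 and 7.31% for Rpl26, close to the median of all members. Across the 20 libraries the Pearson correlation of a gene's own CPM with that of its copies was -0.95 for Rpl29, -0.94 for Rpl34, -0.96 for Rpl26 and -0.85 for Rpl35a, where both counts come from the same libraries.

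**Figure D2:**
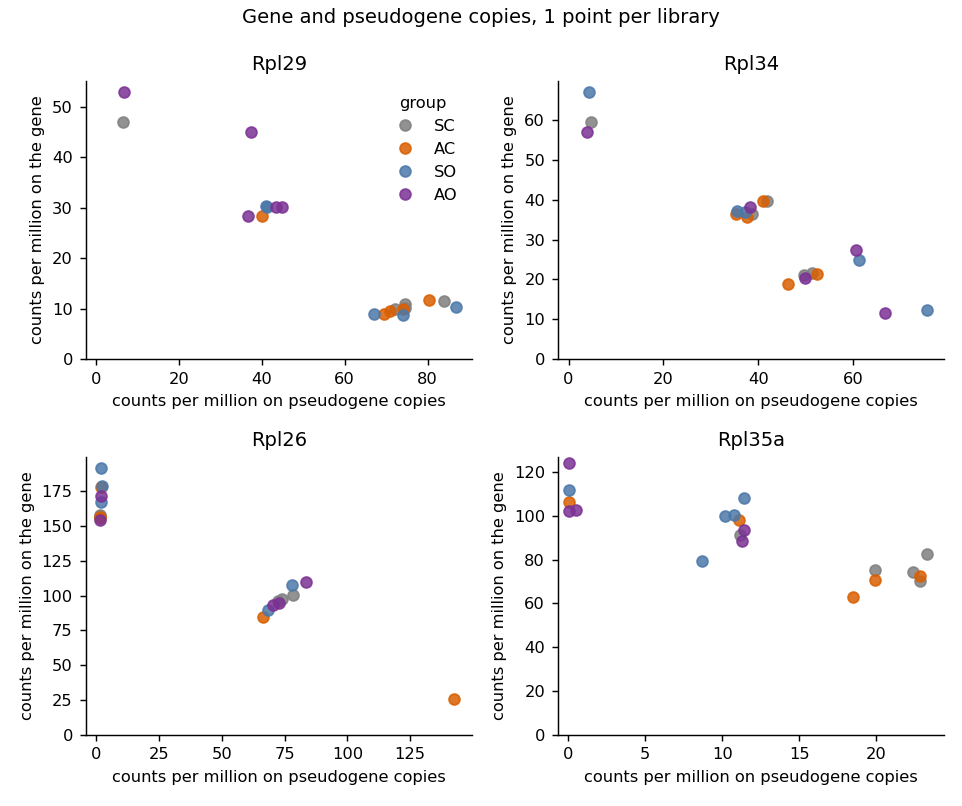
CPM on the gene (vertical) against summed CPM on its pseudogene copies (horizontal), 1 point per library, coloured by group, for Rpl29, Rpl34, Rpl26 and Rpl35a. The points form separate clusters that fall from upper left to lower right. For Rpl35a, 7 control line libraries and no overactive line library lie at 18.5 CPM or more on the copies.

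After amphetamine the estimates of most ribosomal protein genes lay slightly below 0 in both lines, no single gene passed the test, and mice of the groups overlapped. The 80 genes took 1.13, 1.12, 1.26, 1.16 and 1.17% of the counts in control saline mice 1 to 5 and 1.08, 0.943, 1.10, 1.08 and 1.21% in control amphetamine. In the overactive line they took 1.33, 1.09, 1.22, 1.21 and 1.33% after saline and 1.09, 1.34, 1.17, 1.20 and 1.08% after amphetamine. In both lines the ranges overlapped, and the lowest share was in control amphetamine and the highest in overactive amphetamine. The means were 1.17 ± 0.0559%, 1.08 ± 0.0943%, 1.24 ± 0.101% and 1.18 ± 0.106% (SD, n = 5 each) in the same order.

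**Figure D3:**
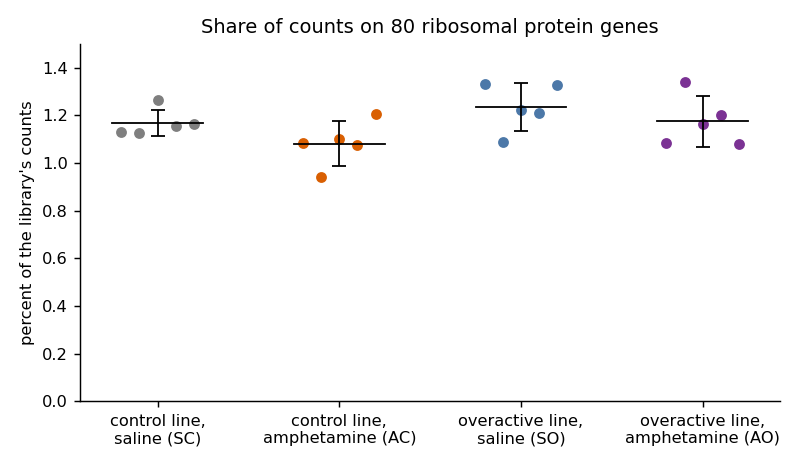
Percent of each library's counts on the 80 ribosomal protein genes, 1 point per mouse, with the group mean and SD as bars. The 4 groups overlap, between 0.943% and 1.34%.

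In the control line no gene of the 80 passed at an adjusted p of 0.05 for amphetamine against saline, and none of the 17206 genes tested did (0%). The estimate was below 0 in 74 of 80 members, 30 of 31 small subunit and 41 of 45 large subunit genes, against 51.2% of all genes tested. The median log2 fold change was -0.09 in the members and -0.00 over all genes tested, and ran from -0.05 without control amphetamine mouse 2 to -0.13 without control amphetamine mouse 5. At an unadjusted p under 0.05, 3 of 80 were lower and 0 higher, against 2.86% and 2.7% of all genes tested. DESeq2 passed 0 members, with 4 at an unadjusted p under 0.05. The members thus lay below 0 more often than all genes, and stood out little in the p-values of single genes. Since most members rose and fell together between mice, their signs, here and in the comparisons below, are not separate observations.

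Among them were Rps15, which lies near the decoding site, and Rpl14 of the large subunit. Rps15 had 221, 219, 238, 207 and 231 CPM after saline and 210.0, 179.9, 210.1, 162 and 198 after amphetamine. The amphetamine mice lay lower on the whole, and 2 of the 5 lay within the saline range. Its log2 fold change was -0.22 (SE 0.081) with an edgeR adjusted p of 0.880. Rpl14 had 169, 181, 185, 176 and 171 CPM after saline and 151, 137, 162, 153 and 179 after amphetamine, where mouse 5 alone reached the saline range, and its log2 fold change was -0.17 (SE 0.069). On the other side, the smallest p among positive estimates belonged to Rps4y2 (0.15), Rps3 (0.04) and Rpl15 (0.02), with adjusted p of 0.951 to 0.952. Rps3 is a small subunit protein at the mRNA entry that also has a role in DNA repair.

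In the overactive line most estimates also lay below 0, with a median closer to 0. No member and no gene of all tested passed (0%), 74 of 80 members lay below 0 against 51.7% of all genes tested, and the median was -0.06 against -0.00. It ran from -0.10 without overactive amphetamine mouse 2 to -0.03 without overactive saline mouse 5. Of the members, 1 had an unadjusted p under 0.05 as higher and 0 as lower, against 5.05% and 2.98% of all genes tested. DESeq2 passed 0 members and 40 of all genes tested, with 2 members at an unadjusted p under 0.05. The gene higher at the unadjusted level in edgeR was Rpl29, with a log2 fold change of 1.08 (SE 0.48) and an adjusted p of 0.569. Of the saline mice 2 of 5 and of the amphetamine mice 5 of 5 had copies under 45 CPM, and with the copies added the estimate was -0.16 (adjusted p = 0.819). Rps6, the substrate of the S6 kinases, had 157, 147, 164, 158 and 159 CPM after saline and 136, 163, 142, 146 and 135 after amphetamine. The amphetamine mice were mostly lower, with mouse 2 near the top of the saline range. The log2 fold change of Rps6 was -0.12 (SE 0.056) with an edgeR adjusted p of 0.620. Rpl7 had 218, 191, 215, 202 and 215 and 186, 218, 185, 188 and 188 CPM, and its amphetamine mice except mouse 2 lay below every saline mouse, for an estimate of -0.11 (SE 0.059). Rpsa, also known as a laminin receptor, had 467, 396, 409.6, 427 and 505 and 376, 449.5, 395, 418 and 381 CPM, where 3 of 5 amphetamine mice lay below every saline mouse, and a log2 fold change of -0.13 (SE 0.071). Among positive estimates, Rps3 (0.06) and Rpl12 of the stalk base (0.04) came after Rpl29.

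**Figure D4:**
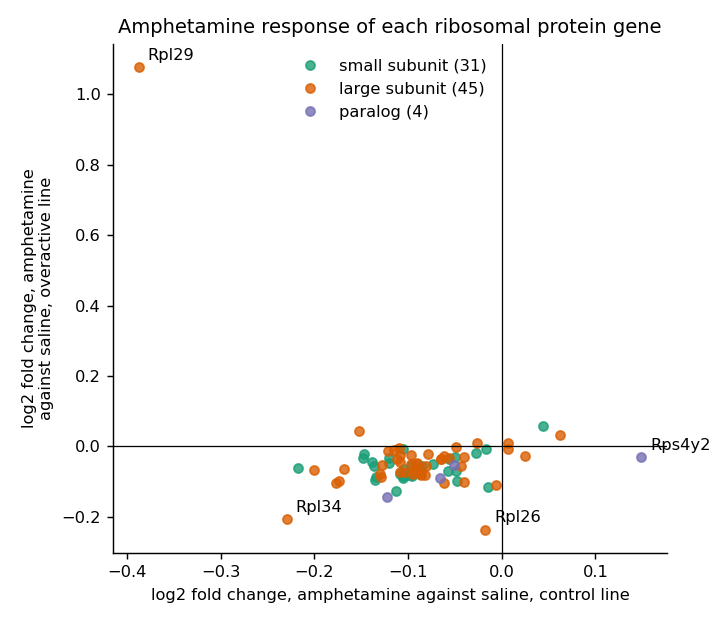
Log2 fold change of each of the 80 genes after amphetamine in the control line (horizontal) and in the overactive line (vertical), coloured by subunit, with the number of genes in brackets. Most points lie in the lower left, below 0 on each axis, and Rpl29 stands apart at -0.39 and 1.08. The axes differ in scale.

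The difference between the lines in the response to amphetamine passed for 0 of 80 members and 0 of all genes tested (0%). Its median was 0.03 over the members and 0.00 over all genes tested, and it changed sign without overactive amphetamine mouse 2 (-0.018), control amphetamine mouse 2 (-0.0089) or overactive saline mouse 2 (-0.0061). At an unadjusted p under 0.05 there was 1 member, higher, in edgeR, against 1.57% of all genes tested as higher and 1.39% as lower, and 1 in DESeq2, which passed 0. Of the members 62 lay above 0, against 51.4% of all genes tested. Among positive estimates the smallest p belonged to 1.46 for Rpl29 (SE 0.69), followed by 0.16 for Rps15 (SE 0.12). With the copies added the difference for Rpl29 was -0.17. Among negative estimates it belonged to -0.10 for Rps6 (SE 0.080), -0.10 for Rpl7 (SE 0.083) and -0.05 for Rpl15 (SE 0.062). With the lines averaged, amphetamine against saline passed for 0 members and 0 genes (0%), and 75 of 80 members lay below 0 against 52.5% of all genes tested, with a median of -0.07. At an unadjusted p under 0.05, 7 members were lower and 0 higher, against 4.47% and 6.54% of all genes tested, and DESeq2 passed 0 members, with 7 at that level.

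Estimates for markers of neighbouring tissue, and of the striatum itself, also leaned to 1 side with treatment in 1 or both lines. None of these markers passed, and the groups' sums overlapped. All 7 tested choroid plexus markers had estimates below 0 after amphetamine in each line, with medians of -0.48 and -0.61, and summed to 142 to 1121 CPM in control saline, 170.2 to 584 in control amphetamine, 171 to 1337 in overactive saline and 188 to 1409 in overactive amphetamine. Of 10 cortical excitatory markers, 9 had estimates above 0 in the control line and 10 in the overactive line, with medians of 0.43 and 1.26. Their sums ranged over 471 to 1208 CPM in control saline, 921 to 1262 in control amphetamine, 282 to 542 in overactive saline and 381 to 1399 in overactive amphetamine. None of these markers was at 0. In the control line alone, all 10 endothelial and mural markers and all 8 markers of meninges and fibroblasts also lay below 0 after amphetamine, with medians of -0.22 and -0.47. In the overactive line 2 of 10 and 4 of 8 did. Of 12 tested loci of striatal projection neuron markers, 9 lay above 0 in the control line, whereas 11 lay below 0 in the overactive line. Their medians were 0.06 and -0.15. Of 7 astrocyte markers, 3 lay below 0 in the control line and 6 in the overactive line. Apart from the cortical score below, the part of these markers in the members' values was not tested. With a cortical marker score as a covariate the members' median was -0.09 in the control line and -0.04 in the overactive line.

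Between the lines, most estimates lay slightly above 0 in the overactive mice, and few genes passed. With both treatments averaged, 4 of 80 genes (5%) passed, all higher in the overactive line, where 7.02% of all genes tested passed and 3.71% as higher. The share of members called was thus near the background. The estimate was above 0 in 70 of 80 members against 50.2% of all genes tested, and the median was 0.06 against 0.00. Without the 4 libraries highest in thalamic, hypothalamic and septal markers, all of them from overactive mice, 55 of 80 lay above 0 and the median was 0.027. The 4 genes were Rps13, a small subunit protein, and Rpl5, Rpl13a and Rpl35a of the large subunit.

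Rps13 (chr7:116331505-116334195) had 64.3, 67.7, 71.4, 67.2 and 73.4 CPM in control saline and 68.3, 58.9, 71.2, 63.5 and 70.8 in control amphetamine. In the overactive line it had 88.7, 71.4, 82.7, 78.8 and 88.2 CPM after saline and 73.5, 88.4, 66.9, 81.5 and 72.8 after amphetamine. Under each treatment 4 of 5 overactive mice lay above every control mouse of that treatment. The log2 fold change was 0.23 (SE 0.053) with an adjusted p of 0.0148.

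Rpl5, which with Rpl11 carries an rRNA into the large subunit and can bind the p53 regulator Mdm2, had 230.0, 210.4, 208, 201 and 203 CPM in control saline, 199.9, 182, 212, 219 and 184 in control amphetamine, 251, 213, 238, 219 and 246 in overactive saline and 218, 253, 216, 238 and 223 in overactive amphetamine. Under each treatment 3 of 5 overactive mice lay above every control mouse of that treatment. Its log2 fold change was 0.18 (SE 0.044) with an adjusted p of 0.0237. Its deposited locus runs over 242375 bases of chromosome 5 and also takes in Evi5, Fam69a and Ube2d2b, so counts from those genes may be included. Rpl13a (chr7:45125558-45128761), which is also known from a complex that silences inflammatory mRNAs, had 257, 238, 295, 261 and 248 CPM in control saline, 229, 200.3, 276, 256 and 243 in control amphetamine, 339.7, 271, 281, 277 and 336 in overactive saline and 261, 346, 292, 311 and 269 in overactive amphetamine. The lines overlapped under each treatment, and the log2 fold change was 0.25 (SE 0.066) with an adjusted p of 0.0265.

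Rpl35a, mutated in an inherited anaemia, had 70.2, 75.3, 82.7, 91.3 and 74.4 CPM in control saline, 72.5, 63.1, 70.6, 107 and 98.3 in control amphetamine, 108, 79.4, 99.97, 112 and 101 in overactive saline and 103, 124, 102, 93.4 and 88.7 in overactive amphetamine. After saline 4 of 5 overactive mice lay above every control mouse, and after amphetamine 1 of 5 did. Its log2 fold change was 0.33 (SE 0.093) with an adjusted p of 0.0399. The copies Gm14279 and Gm10029 together had 22.9, 19.96, 23.3, 11.1 and 22.4 CPM in control saline and 22.8, 18.5, 19.96, 0.0251 and 11.1 in control amphetamine, and 11.4, 8.71, 10.2, 0.0287 and 10.8 and 0.491, 0.0625, 0.0366, 11.4 and 11.3 in the overactive groups. They reached 18.5 to 23.3 CPM in 7 of 10 control mice and in none of the 10 overactive mice, where they stayed at or below 11.4. With the copies added to the gene the log2 fold change between the lines was 0.14 (SE 0.060) with an adjusted p of 0.153, so the call was lost. Under the same sums Rps13 (adjusted p = 0.0271), Rpl5 (0.0237) and Rpl13a (0.0264) still passed.

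**Figure D5:**
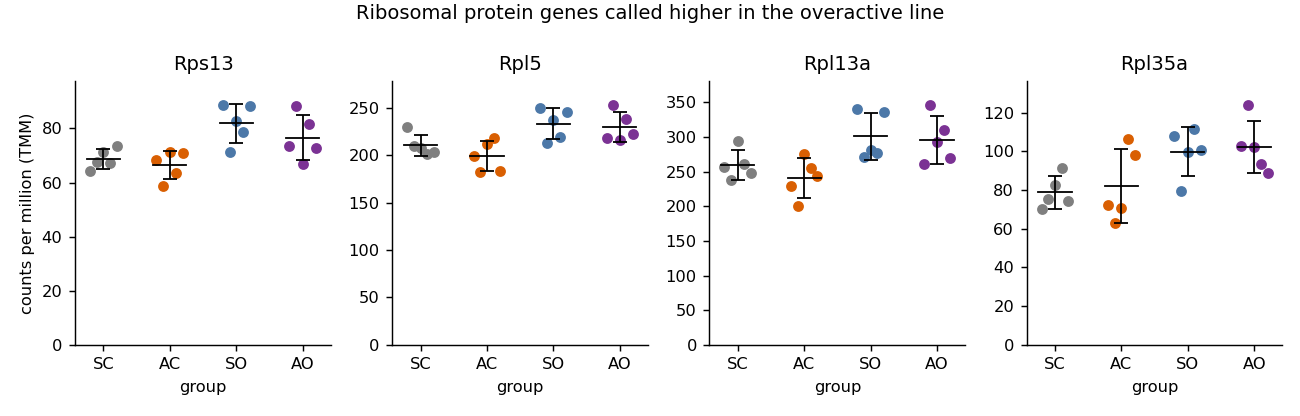
CPM of Rps13, Rpl5, Rpl13a and Rpl35a by group, 1 point per mouse with the group mean and SD. The overactive groups (SO and AO) have higher means than the control groups (SC and AC), and the points of the lines overlap under each treatment in each gene.

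The 4 calls did not hold in every setting. None passed with a cortical marker score as a covariate (adjusted p of 0.0897 for Rps13, 0.0908 for Rpl5, 0.156 for Rpl13a and 0.309 for Rpl35a) or without the 4 libraries with the highest thalamic, hypothalamic and septal markers (adjusted p of 0.0581 for Rps13, 0.111 for Rpl5, 0.167 for Rpl13a and 0.305 for Rpl35a). The log2 fold changes with the covariate were 0.22 for Rps13, 0.19 for Rpl5, 0.24 for Rpl13a and 0.24 for Rpl35a, and without the 4 libraries 0.21, 0.16, 0.20 and 0.22 in the same order. All 4 libraries left out were of the overactive line (saline mice 1 and 4, amphetamine mice 2 and 3), which left 6 of its 10 mice. Saline mouse 1 and amphetamine mouse 2 were among the 3 with the highest mean deviation of the members. All 12 tested markers of that list had estimates above 0 in the overactive line, with a median of 0.79, and they summed to 167 to 329.7 CPM in control saline, 188 to 245 in control amphetamine, 219 to 609 in overactive saline and 185 to 524 in overactive amphetamine. All 7 choroid plexus markers were likewise above 0, with a median of 0.75, while 9 of 10 cortical and 11 of 12 striatal markers were below 0, with medians of -0.59 and -0.14. Some glial, ependymal, endothelial and mural markers passed between the lines. Of 7 microglia markers 2 were above 0 and 1 passed, with a median of -0.14. Of 10 endothelial and mural markers 7 were above 0 and 1 passed. Of 7 astrocyte markers 6 were above 0 and 2 passed, of 5 oligodendrocyte precursor markers 5 were above 0 and 1 passed, of 8 oligodendrocyte markers 6 were above 0 and 1 passed, and of 6 ependymal markers 4 were above 0 and 2 passed. Astrocyte markers summed to 960.4 to 1063 CPM in control saline, 942 to 1056 in control amphetamine, 1034 to 1323 in overactive saline and 967 to 1146 in overactive amphetamine. The part of the choroid plexus, striatal, glial, ependymal, endothelial and mural markers in the result was not tested. Leaving out control saline mouse 5 left 2 calls. Rpl35a was also lost in 11 of the 20 fits without 1 library, those without control saline mice 1, 2 or 5, control amphetamine mice 1, 2 or 3, overactive saline mice 1, 3 or 4, or overactive amphetamine mice 2 or 3.

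Within a treatment no member passed. After saline the overactive line had 0 of 80 genes past the test, where 1.11% of all genes tested passed, and the median was 0.04 with 60 of 80 estimates above 0, against 49.9% of all genes tested. The smallest p among positive estimates were those of Rps13 (0.25, SE 0.075, adjusted p = 0.0919), Rpl35a (0.34) and Rpl7 (0.15), and DESeq2 passed Rps13 with an adjusted p of 0.0333. At an unadjusted p under 0.05, 6 members were higher and 0 lower in edgeR, against 8.74% and 8.57% of all genes tested. On the negative side were Rps4y2 (-0.48), Rps9 (-0.13) and Rpl36 (-0.07). After amphetamine 0 of 80 passed, where 0.453% of all genes tested did, with a median of 0.07 and 70 of 80 above 0, against 51% of all genes tested. At an unadjusted p under 0.05, 8 members were higher and 1 lower, against 6.79% and 6.06% of all genes tested, and DESeq2 passed 0 with 10 at that level. The smallest p there belonged to Rpl5 (0.20, SE 0.063, adjusted p = 0.175), Rpl13a (0.30) and Rpl29 (1.45). Rpl29 was the 1 member whose lines did not overlap after amphetamine, where 1.57% of all genes tested were higher without overlap, and with its copies added the estimate was -0.18. On the negative side Rps4y2 had 5.10, 6.58, 3.68, 7.89 and 10.8 CPM in control amphetamine and 2.97, 5.10, 5.19, 4.40 and 3.94 in overactive amphetamine, with overlap and a log2 fold change of -0.66 (SE 0.25, adjusted p = 0.288). Rps9 (-0.04) and the paralog Rps27l (-0.04) followed. The comparisons within a treatment share their libraries with those within a line, so their estimates are not independent.

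Related genes gave a background for these values. Fau, Gnb2l1 (Rack1, a scaffold on the small subunit) and Rpl36al encode ribosomal proteins under symbols that the rule missed. In the control line after amphetamine their log2 fold changes were -0.09 for Fau, -0.06 for Gnb2l1 and -0.08 for Rpl36al, and in the overactive line -0.02, -0.07 and -0.08 in the same order. None of them passed in any comparison. For Rpl36al the line estimate was 0.10, adjusted p = 0.107. Of 11 tested genes with a TOP start outside the ribosomal proteins, 7 lay below 0 in the control line after amphetamine and 9 in the overactive line, and none passed. Of 10 cytosolic elongation factors, 5 lay below 0 in each line, and none passed. Of 36 initiation factors, 11 and 18 lay below 0 after amphetamine in the control and overactive line and none passed. Between the lines, with treatments averaged, 9 of the 11 TOP genes lay above 0 in the overactive mice and none passed. Fau and Gnb2l1 were at 0.0088 and 0.042. Above 0 were also 4 of 10 elongation factors, 15 of 36 initiation factors and 31 of 76 mitochondrial ribosomal protein loci. For ribosome biogenesis genes it was 18 of 55, and for mTOR and TOP regulators 9 of 20.

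Between the lines the genes that passed in the related lists were lower in the overactive mice. Among the 36 initiation factors these were Eif3j (-0.52, adjusted p = 0.0140), a loosely bound part of the factor that prepares the small subunit, and Eif2b4 (-0.15, adjusted p = 0.0482), a subunit of the exchange factor that recycles the initiator. Among 76 loci of mitochondrial ribosomal proteins 3 passed, Mrps10 (-0.20, adjusted p = 0.0290), Mrpl41 (-0.30, adjusted p = 0.0379) and Mrpl11 (-0.14, adjusted p = 0.04999). Among 55 ribosome biogenesis genes Nolc1 (-0.16, adjusted p = 0.0199), a nucleolar phosphoprotein, passed. Among 20 regulators of mTOR and TOP mRNAs these were Tsc2 (-0.23, adjusted p = 0.00612), which restrains mTOR, and Rps6kb2 (-0.21, adjusted p = 0.0259), an S6 kinase. Tsc2 had 127 ± 9.82 and 126 ± 6.69 CPM in the control groups and 108 ± 9.24 and 108 ± 7.60 in the overactive groups (SD, n = 5), saline first. As 3.31% of all genes tested passed as lower, 2 of 36, 3 of 76, 1 of 55 and 2 of 20 are to be read against that share. Over all genes, 1208 passed between the lines, 236 with the cortical score and 323 without the 4 libraries highest in thalamic, hypothalamic and septal markers. Whether the genes named here still passed in those settings was not examined.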

How the data were processed

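RNA of whole striatum from 20 mice was sequenced in read pairs. The deposited values are estimated counts per assembled locus, most of them whole numbers; the builds mm10 and GRCm38 are named per the submitters' processing notes, and the counting tool is not given in the sources used here. The 10576 loci without a symbol (0.65% of counts) were left out. Counts were rounded, filtered with filterByExpr, which left 17206 loci, and scaled by TMM. edgeR 4.0.16 (R 4.3.3) fitted 1 mean per group over all libraries, and quasi-likelihood tests gave 7 comparisons, two-sided, with Benjamini-Hochberg adjustment over all loci tested and a threshold of 0.05. The procedure was tested on simulated data. Values per gene are CPM, and levels are divided by the shortest annotated coding mRNA.

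The members and lists were chosen with earlier results of these data known. Named genes are those past the threshold, the 3 smallest p in each direction, the 3 highest and 3 lowest levels, the 3 largest CVs and the paralog pairs. Copies were found with blastn 2.17.0 in GENCODE M21. Alternatives included DESeq2 1.42.0, limma-voom (limma 3.58.1), other scalings and filters, a marker covariate, a replicate block and leaving out libraries. Adding the copies' counts was chosen after seeing the data. 0 columns belonged to other series. Rpl23 shares a locus with another gene and was not matched by symbol. Some members of the gene set and of the lists are not reported here by name.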

Additional observations from a re-analysis of the deposited data

Results flagged for a closer look

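In 14 of 156 groups of 5 libraries (8.97%), 1 library lay further from the nearest other than 0.71 of the group's whole range. This is the critical value of Dixon's test, which independent values from a normal distribution pass in about 1 of 20 groups. Some genes here were named for their large CV, and counts on a gene and on its copies vary together. The 8.97% thus cannot be read against that rate. Of the 14 groups, 8 are counts on Rpl29 or on the pseudogene copies of Rpl29, Rpl34 or Rpl35a. Rpl29 in control saline mouse 2 had 47.1 CPM, where the other 4 mice had 10.0 to 11.5, and its copies there had 6.45 CPM, where the other 4 mice had 72.1 to 84.1. Rpl29 in control amphetamine mouse 2 had 28.3 CPM, where the other 4 mice had 8.85 to 11.7, and its copies had 40.0 CPM, where the other 4 mice had 69.5 to 80.2. The Rpl29 copies in overactive amphetamine mouse 5 had 6.80 CPM, where the other 4 mice had 36.7 to 44.9. The Rpl34 copies in control saline mouse 4 had 4.65 CPM, where the other 4 mice had 38.7 to 51.4. The Rpl35a copies had 11.1 CPM, where the other 4 mice had 19.96 to 23.3, in control saline mouse 4, and 0.0287 CPM, where the other 4 mice had 8.71 to 11.4, in overactive saline mouse 4.

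The others fell on 3 mice. Rps9 had 122 CPM, where the other 4 mice had 94.5 to 102, and Rps4y2 had 6.36 CPM, where the other 4 mice had 3.73 to 4.30, in overactive saline mouse 1. Rpl7 had 218 CPM, where the other 4 mice had 185 to 188, and Rps24 had 345 CPM, where the other 4 mice had 292 to 306, in overactive amphetamine mouse 2. In the same mouse the sum of Rpl35a and its copies was 124 CPM, where the other 4 mice had 99.95 to 105. Rpl22l1 in control amphetamine mouse 2 had 34.3 CPM, where the other 4 mice had 38.3 to 39.7.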

How the results depend on the processing

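Of 1528 recomputed values over 52 results and 34 settings, 1488 were classed as unchanged. Estimates of single genes had to keep their side of the threshold, and values with no test had to move by less than the spread between mice. For the members' medians that spread was 0.096 on the log2 scale, which is larger than any of the medians themselves. A median could thus vanish or change sign and still be classed as unchanged, so for the medians this class says little. Their ranges are given below. Counts of members that passed were also classed as unchanged after a modest shift, such as from 4 to 6. Among the values with no test, the median for the difference between the lines in the response changed sign in 3 fits, to -0.0089 without control amphetamine mouse 2, -0.018 without overactive amphetamine mouse 2 and -0.0061 without overactive saline mouse 2. The median log2 fold change of the members over the fits without 1 library ran from -0.13 to -0.05 for amphetamine in the control line and from -0.10 to -0.03 in the overactive line, from -0.02 to 0.07 for the difference, and from -0.10 to -0.05 with the lines averaged. For the lines it ran from 0.01 to 0.07 after saline, 0.03 to 0.11 after amphetamine and 0.04 to 0.08 averaged, where it was 0.027 without the 4 libraries in which thalamic markers summed highest. Between the lines after saline, DESeq2 passed 1 member. With treatments averaged, 4 members passed, 6 with DESeq2, 0 with the cortical score, 0 without those 4 libraries, and 2 to 5 without 1 library, the 2 without control saline mouse 5. Over all genes these counts were 1208, 2095 with DESeq2, 236 with the cortical score and 323 without the 4 libraries. DESeq2 also passed more genes after saline (764 against 191), after amphetamine (322 against 78) and for amphetamine with the lines averaged (161 against 0), where the fit without the 4 libraries passed 80. A further share of counts left out the genes of the paralog pairs and members whose locus takes in another annotated gene. It was 0.796% in control saline, 0.733% in control amphetamine, 0.837% in overactive saline and 0.794% in overactive amphetamine. Members with many counts on pseudogene copies, such as Rpl29, Rpl34 and Rpl26, stayed in this share. With copies added, the estimates of Rpl29 became -0.16 for amphetamine in the overactive line, -0.17 for the difference and -0.18 between the lines after amphetamine. Without 1 library, the estimate of Rps4y2 for amphetamine in the control line ran from -0.079 (without control amphetamine mouse 5) to 0.30. In the overactive line that of Rps3 ran from -0.0076 (without overactive saline mouse 1) to 0.10, and was -0.067 without the 4 libraries, and that of Rpl12 was -0.047 with the cortical score. Between the lines after amphetamine, Rps9 ran from -0.086 to 0.021 (0.0060 without control amphetamine mouse 5, 0.021 without overactive amphetamine mouse 5) and Rps27l from -0.090 to 0.024 (without control amphetamine mouse 5). The cause was not tested, except that adding copies changes what is counted. With group means subtracted, libraries of the same replicate number correlated from -0.23 to 0.25 in 30 pairs, 10 of them over 0.1. Pairs with different numbers were not set beside them, so these values cannot tell whether the numbers pair the mice. With the replicate block, 0 members passed in 6 comparisons and 4 between the lines averaged. Medians with the replicate block were -0.10, -0.05 and 0.03 for amphetamine in the control line, in the overactive line and for the difference, 0.04, 0.08 and 0.06 for the lines after saline, after amphetamine and averaged, and -0.07 for amphetamine averaged.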
